A study of Sus scrofa with 599 samples.

Results

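Of the 19558 autosomal enhancer regions called in the upper layer of backfat of normal-weight pigs, 5685 (29.1%) overlapped by at least 1 base a region in every one of the 17 other deposited enhancer tables. These members were chosen by that overlap alone, so their presence in 18 tables is the rule and not a result, and everything read from the same tables (length, H3K27ac signal, super-enhancer calls) is given as description with no test. Expression of nearby genes and the Hi-C compartment index were measured in other libraries and were not used to choose them. The remaining 13873 regions of the same table, which missed at least 1 other table, serve as the comparison, and the 18 tables together hold 401610 regions.

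The tissues came from female Bama pigs 2 years old. Animals of the NC group received normal feed. The WG group gained weight on high-fat feed over 22 weeks. The WL group was fattened likewise and then fed 10% of the normal caloric intake for a further 12 weeks, so WL and WG animals were different pigs. Each of the 3 diets was sampled in 4 depots. The greater omentum (GOM), mesenteric (MAD) and retroperitoneal (RAD) adipose tissues are visceral, and the upper layer of backfat (ULB) is subcutaneous. The labels give no genetic modification of any group, and they do not say whether the same replicate number in different depots marks the same pig. The 18 enhancer tables comprised 4 from NC, 4 from WL and 10 from WG, where the authors had divided the pigs of a depot into subgroups by estimated cell composition. Each table was made from pooled H3K27ac and input libraries, so no table carries a replicate error, and the number of H3K27ac libraries behind a table ranged from 1 to 11. Gene expression was measured in 236 RNA-seq libraries and the compartment index in 240 Hi-C libraries, with 5 to 46 samples in each of the 12 groups of diet and depot.

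Markers of adipocytes, summed over 12 genes, reached 4706 to 39500 TPM (transcript abundance scaled for length and depth) per RNA-seq library, and no gene of the lists for the tissue's own cell types was at 0 throughout a group. Some MAD libraries stood apart by high smooth muscle or lymphocyte markers, and in 35 Hi-C libraries the compartment index of chromosome 10 departed from the rest. The main counts that rest on them are given with and without them, but changes of compartment only with them.

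H3K27ac is the acetylation of lysine on the tail of histone H3 that marks active enhancers and promoters. Enhancers are DNA elements to which transcription factors bind to raise transcription of genes nearby or at a distance, and long runs of strongly acetylated enhancers, called super-enhancers, often lie at genes that set the identity of a cell type. In adipocytes such genes include PPARG, the nuclear receptor that drives fat cell formation, and its partner RXRA. In the nucleus, chromatin separates into an A compartment, which is open and gene-rich, and a B compartment, which is compact and largely silent.

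The members with the strongest mean rank over the 18 tables lay at PPARA, the nuclear receptor that governs fatty acid oxidation, at ZFP36L2, which encodes an RNA-binding protein that promotes mRNA decay, and at RXRA. The sequences below are the 200 bases at the centre of the longest stretch that all 18 tables share within each of these 3 members, read from the plus strand of Sscrofa11.1 (RefSeq). Capitals mark the only copy found of the motifs searched on both strands: TGANTCA of AP-1, CCGGAAG of ETS factors, GGGCGG of the GC box, CACGTG of the E-box and TTGCGCAA of C/EBP factors. A match is only a run of letters and says nothing of binding.
PPARA member, chr5:3430400-3430599, GC box: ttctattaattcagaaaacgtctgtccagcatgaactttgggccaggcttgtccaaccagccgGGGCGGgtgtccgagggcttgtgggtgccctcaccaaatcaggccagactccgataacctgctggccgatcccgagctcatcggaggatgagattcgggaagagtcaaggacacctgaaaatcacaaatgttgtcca
ZFP36L2 member, chr3:97519300-97519499, AP-1: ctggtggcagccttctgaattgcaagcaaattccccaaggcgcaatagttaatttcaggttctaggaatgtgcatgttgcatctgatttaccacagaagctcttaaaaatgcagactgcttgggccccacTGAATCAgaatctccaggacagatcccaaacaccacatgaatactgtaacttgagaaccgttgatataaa
RXRA member, chr1:273765500-273765699, ETS: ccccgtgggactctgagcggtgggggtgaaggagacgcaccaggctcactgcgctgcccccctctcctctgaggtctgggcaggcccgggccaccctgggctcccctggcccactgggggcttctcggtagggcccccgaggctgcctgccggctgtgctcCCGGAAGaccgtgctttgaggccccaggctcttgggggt

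The PPARA member (chr5:3330000-3511199, 181200 bases) held no start site of a gene placed here, and 66.2% of it lay in the shared stretches. The ZFP36L2 member (chr3:96913400-97596199) was the longest of all at 682800 bases, was stitched from 28 peaks and also reached MTA3 and HAAO, but only 21.4% of it was shared base for base. In the RXRA member (chr1:273691600-273831999, 140400 bases) the shared part was 94.6%. All 3 were marked as super-enhancers in all 18 tables.

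Member regions were long. Their median length was 35600 bases (quartiles 17400 and 67800, range 400 to 682800), against 5200 (3200 and 11800) for the other regions, and they held 297 Mb, which is 68.9% of the bases in NC ULB regions and 13.1% of the autosomes. A longer region has more chances to meet the rule: 66 of 1319 regions up to 2 kb were members, 26.96% of those of 10 to 20 kb, 87.1% of those of 50 to 100 kb and 97.4% of those above 100 kb. Only 18.3% of members were single peaks, against 71.2% of the others, and the median member was stitched from 3. Because length and membership are tied, the values below are also given within length classes where that can be done.

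**Figure D1:**
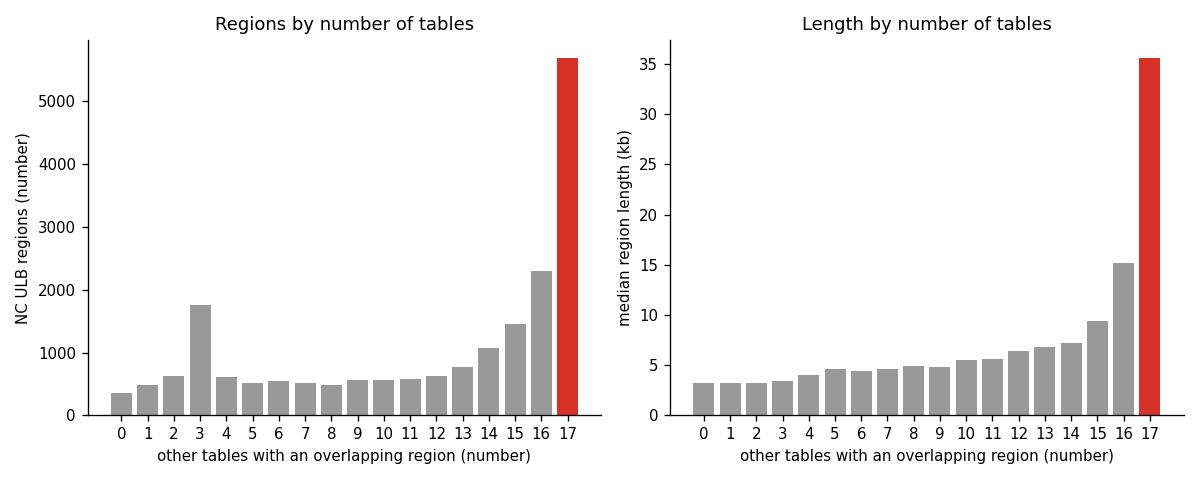
Number of NC ULB regions (left) and their median length in kilobases (right) by the number of other tables, from 0 to 17, that hold an overlapping region; each bar is a count or a median over regions, with the 5685 members in red. The members form the largest class, ahead of the 2304 regions found in 16 other tables, whose median length was 15200 bases.

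The regions just outside the rule were found in 16 of the 17 other tables. They numbered 2304 and were most often absent from the WG group 5 tables of RAD (452) and ULB (433), and least often from those of WL MAD (15) and WL ULB (19). The longest of them covered LDB2 (chr8:11722200-11972599, 250400 bases), which encodes a LIM domain binding protein, and was missing in NC GOM. The next was at ZMYND8 (chr17:49315000-49500799), a reader of histone acetylation, and was missing in WG group 6 ULB. Just inside, 6 members shared only 200 bases with their least overlapping table, among them a region at ZHX1 (chr4:16098800-16116799). The median over all members of this least overlap was 7600 bases. A further class stood out among the non-members: 1762 regions were found in exactly 3 other tables, and 1428 of these in the NC tables alone. Of these, 88.4% held a gene's start site and 40.4% lay wholly within 2 kb of one. The 4 NC tables as a whole had a start site in 35.8% to 39.8% of their regions, and the 14 WG and WL tables in 16.8% to 25.5%, so the tables were not alike in how promoters were kept, and diet cannot be told apart from this difference.

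Overlap in every table did not mean the same bases in every table. In 4084 members at least 1 base was common to all 18 tables, while in 1601 the tables overlapped different parts of the member. The common part came to 6189 pieces and 48.9 Mb, which is 16.4% of member bases. The median piece was 4400 bases long and the longest, in the RXRA member, 132800. In 830 members the common part was more than 50% of the length.

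Super-enhancer calls sorted the members further. Of the 5685, 101 (1.78%) overlapped a super-enhancer in all 18 tables, 3072 in 1 to 17 and 2512 (44.2%) in none. The 101 had a median length of 146400 bases and a median signal of 2.92 times the table median, while the 2512 measured 22000 bases and 1.16 times. Beside PPARA, ZFP36L2 and RXRA, the 10 leading members included regions at IRF2BP2 (chr14:56111200-56670999, 559800 bases), a transcriptional corepressor, at RAD51B (chr7:91912200-92426999), a DNA repair gene, at METRNL (chr12:130800-315199), which encodes a secreted adipokine, at ZBTB16 (chr9:41636000-41845799), a zinc finger transcription factor, and at FOSL2 (chr3:110779000-110990199), a subunit of AP-1. Another covered the start sites of 18 placed genes around RELA (chr2:6503800-6981799), a subunit of NF-kappa B. The sixth in rank, chr1:269562000-269748999, had no placed gene within 10 kb. Chromosome 12 held most members per length, 4.30 per Mb covering 29.04% of the chromosome, and chromosome 8 the fewest, 1.73 per Mb covering 6.87%.

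At the other end, 3 members were only 400 bases long. The member at chr4:63117000-63117399, near the potassium channel gene KCNB2, had a mean relative signal of 116.28 and one on chromosome 11 of 39.1, whereas the ADARB1 member on chromosome 13 stood at 3.34. The central 200 bases of the outer 2 are shown because their composition differs so widely from each other, with 31.5% and 81.5% G and C; capitals mark GC boxes on either strand.
KCNB2 member, chr4:63117100-63117299: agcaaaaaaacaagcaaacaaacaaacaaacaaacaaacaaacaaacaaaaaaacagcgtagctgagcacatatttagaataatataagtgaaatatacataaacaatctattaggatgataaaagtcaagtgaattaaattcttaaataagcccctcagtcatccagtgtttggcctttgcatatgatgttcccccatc
ADARB1 member, chr13:207759300-207759499: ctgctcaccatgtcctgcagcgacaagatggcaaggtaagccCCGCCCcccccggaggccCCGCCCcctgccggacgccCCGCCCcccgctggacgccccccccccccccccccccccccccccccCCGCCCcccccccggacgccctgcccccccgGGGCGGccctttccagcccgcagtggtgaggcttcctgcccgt

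The KCNB2 member was also among the least even. Its relative signal was at most 48.7 in the 4 NC tables and at least 181 in the 4 WL tables. Low-complexity runs are visible in both sequences, and their part in the signal was not tested. Over all members the coefficient of variation of relative signal across the 18 tables had a median of 0.443 and ran from 0.213, at PLCL2 and TBC1D5 (chr13:4131200-4233399), to 1.79 at ZNF184 on chromosome 7.

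Relative signal here is H3K27ac minus input signal per base, divided by the median over all regions of the same table. In each of the 18 tables the regions that touched a member had a higher median than those that did not, but the ratio was only 1.05 in NC MAD, 1.09 in NC ULB, 1.19 in NC GOM and 1.37 in NC RAD, against 1.25 to 1.69 in the WG tables and 1.75 to 1.93 in the WL tables. In NC ULB itself the medians were 0.0792 and 0.0725. Within length classes they were 0.230 and 0.113 up to 2 kb, 0.108 and 0.0745 at 2 to 5 kb, and 0.0673 and 0.0600 at 20 to 50 kb. Above 100 kb the order turned, with 0.0988 for members and 0.126 for the 20 others. Regions touching members were 29.1% to 50.5% of a table's regions, and carried 70.8% to 78.6% of its net signal and 87.3% to 93.4% of its super-enhancers. They were also longer. In NC ULB members held 68.9% of the bases and 70.8% of the net signal, so there the share of signal was close to that of length. The share of bases is not given for the other tables, and the super-enhancer shares were not matched for length. Between 10.9% of members (WG group 4 MAD) and 30.7% (WL ULB) overlapped a super-enhancer in a given table. Per base, 944 members (16.6%) were above the table median in all 18 tables and 56 were below it in all.

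**Figure D2:**
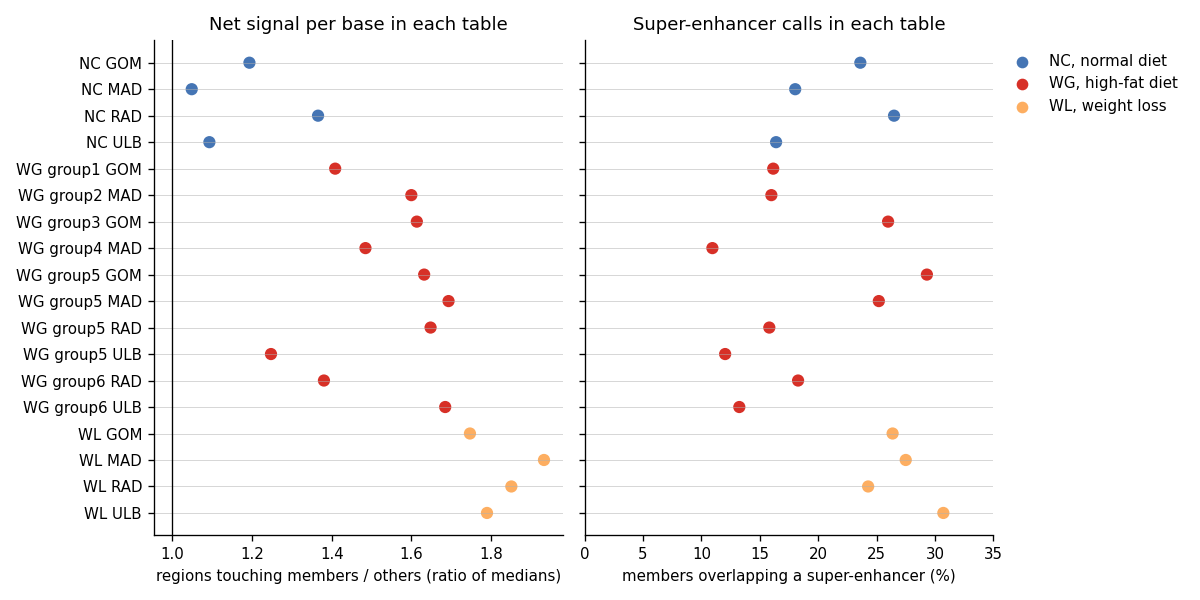
For each of the 18 tables, the ratio of median net signal per base of regions touching members to that of other regions (left) and the percent of members overlapping a super-enhancer (right); points are tables, coloured by diet, and no error is available because libraries were pooled. The ratio runs from 1.05 in NC MAD to 1.93 in WL MAD, with the 4 WL tables at the right.

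The tables of the 3 diets gave different signals at many members. Since the NC tables kept promoters differently, diet cannot be told apart from the making of the tables in any comparison with NC. The WL tables also differed from the WG tables in H3K27ac over input signal. It was 2.59 to 2.82 in WL and 1.64 to 2.46 in WG at regions touching members. At other regions it was 1.94 to 2.12 and 1.48 to 1.94. Diet cannot be told apart from this difference between WL and WG. At the PPARA member the relative signals were 2.93, 2.92, 3.83 and 3.25 in the NC tables of GOM, MAD, RAD and ULB, 2.67 to 5.51 in the 10 WG tables (median 4.59), and 6.06, 5.84, 5.24 and 5.27 in the WL tables in the same order. The NC and WL values did not overlap, and the WG values spanned from below NC into WL. At the member of JUNB (chr2:66202400-66274799), an AP-1 subunit induced within minutes of stimulation, the NC values were 2.21, 2.54, 3.97 and 3.002, all below the 10 WG values (4.57 to 9.73). At LIPE (chr6:49479600-49579399), the gene of hormone-sensitive lipase, NC stood at 1.24, 1.02, 1.04 and 1.13, WG at 1.94 to 2.61 and WL at 2.60, 3.22, 3.20 and 2.70. The member of SOX18 (chr17:62846400-62915999), an endothelial transcription factor, separated all 3 diets: 0.813, 0.745, 1.496 and 1.04 in NC, 2.75 to 4.08 in WG, and 4.79, 5.11, 4.58 and 4.41 in WL. The member of PNPLA2 (chr2:418800-595199), the first triglyceride lipase of lipolysis, reached 2.56 to 4.69 in WG and 5.08, 5.19, 5.13 and 5.47 in WL, with no overlap.

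Counted over members, all 10 WG tables lay above all 4 NC tables in 160 (2.81%) and below in 3. All WL tables lay above all WG tables in 163 (2.87%) and below in 2, and all WL above all NC in 1363 (23.98%) and below in 41. No such count over other regions is given, and the difference of WL from WG in H3K27ac over input applies here too. These counts moved with how the tables were scaled. With the median taken over regions without a start site they were 65 (1.14%) and 9, 204 and 0, and 1156 (20.3%) and 44. Among the 2677 members that held no start site they were 16 (0.598%) and 8, 65 and 0, and 276 (10.3%) and 29. The median WG minus NC difference went from 0.21 to 0.0086 on the log2 scale, while that of WL minus WG was 0.30 and 0.31.

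The GOM tables stood apart from those of other depots at more members than the other depots did from each other. With 5 GOM and 4 ULB tables, ULB lay wholly above GOM in 180 members (3.17%) and wholly below in 403 (7.09%). RAD lay wholly above GOM in 196 and below in 402, and MAD in 113 and 292. For ULB the counts were 55 and 49 against MAD and 43 and 55 against RAD, and for RAD against MAD 39 and 27. No such count over other regions is given. The member of PPARG (chr13:68263800-68476399) stood at 0.838 to 1.21 in GOM and 1.34, 1.98, 2.25 and 2.45 in ULB. The adipocyte factor EBF1 (chr16:64566400-64758399) read 0.711 to 0.876 in GOM and 1.22 to 2.36 in ULB. The HOXD8, HOXD9 and HOXD10 member (chr15:81905200-81989599), part of the homeobox cluster that records position along the body, read 0.670 to 1.74 in GOM and 1.98 to 3.84 in ULB. The HOXA5, HOXA9 and HOXA10 member (chr18:45403600-45486599) ran the other way, with 5.50 to 7.06 in GOM and 1.64 to 3.98 in ULB, as did KLF15 (chr7:53837600-53910599), a glucocorticoid-responsive metabolic factor, with 2.61 to 2.94 and 1.29 to 2.38. Across all members, Spearman's rho between 2 tables had a median of 0.7503 for the 8 pairs of the same depot and diet, 0.619 for the 24 that shared only the depot, 0.610 for the 49 that shared only the diet and 0.554 for the 72 that shared neither. The 8 pairs were all of WG tables. Among pairs that shared only the depot, rho was 0.393 to 0.654 with an NC table and 0.492 to 0.820 between WG and WL. Diet cannot be told apart here from the making of the NC tables. These are correlations across regions, which are not independent.

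A start site was held by 52.9% of members and 34.4% of other regions, and a gene body was touched by 79.98% and 71.1%. Within length classes the difference in start sites turned: up to 5 kb it was 17.8% of members and 29.2% of others, at 10 to 20 kb 37.5% and 38.9%, and at 20 to 50 kb 53.8% and 49.1%. The others include the 1428 regions found in the NC tables alone, of which 88.4% held a start site. Regions found in exactly 3 other tables, where these belong, had a median length of 3400 bases. No share in this paragraph was computed without them, so the turn cannot be told apart from how the NC tables kept promoters. G and C made up 46.2% of the median member, 45.1% of the median other region and 51.3% of the median of the 101 members that were super-enhancers everywhere. The AP-1 motif occurred in 30.0% of 1000-base windows centred on the shared part of members and in 28.6% of windows at the centre of other regions. The GC box occurred in 36.5% and 30.3%, but in 25.4% of windows at the centre of the whole member, so this share depended on where the window was put.

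Among 13052 genes that could be placed by symbol, 6755 (51.8%) lay within 10 kb of a member, 4980 only near another region and 1317 near none. Of the genes near a member, 91.0% were detected, that is above 0.5 TPM in 80% or more of the libraries of any group, against 86.9% and 37.4%. In every one of the 236 libraries the median TPM was higher for genes near a member than for genes near other regions, with a median over libraries of 15.98 (range 10.4 to 24.1) against 12.1 (4.03 to 15.95). This difference shrank when the length of the region holding the start site was matched. The median mean TPM was 16.7 for members and 15.3 for others at up to 10 kb, 19.3 and 16.9 at 10 to 20 kb, 21.004 and 21.06 at 20 to 50 kb, and 18.9 and 19.5 at 50 to 100 kb. Above 100 kb it was 19.4 over 1890 genes in members and 40.1 over the 21 genes in other regions.

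**Figure D3:**
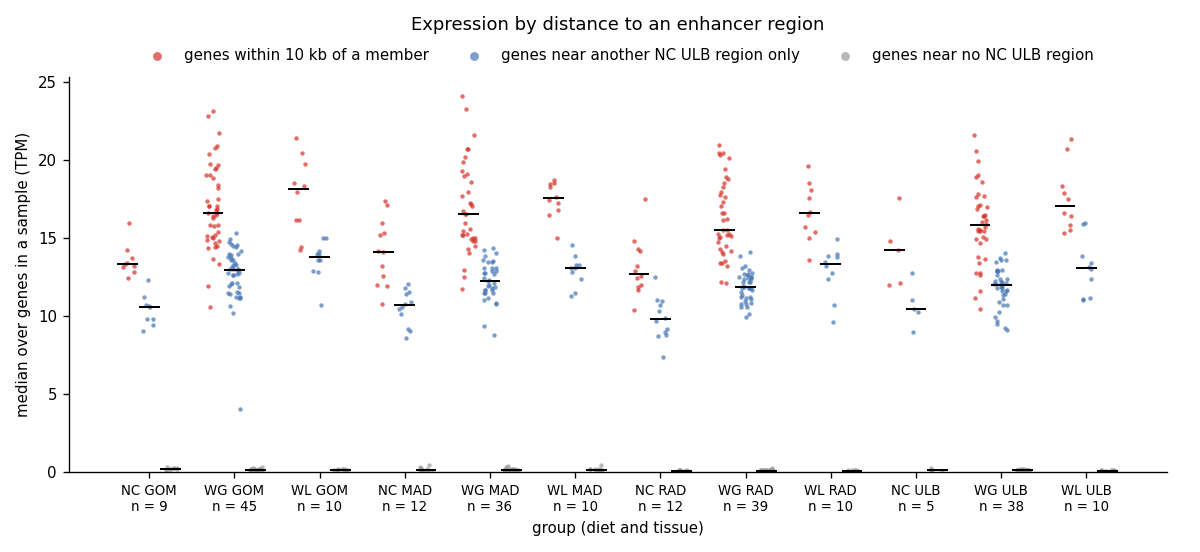
Median TPM in each RNA-seq library of genes near a member and of genes near other regions only, by group of depot and diet; points are libraries and black lines are group medians. In each of the 236 libraries the genes near members have the higher median.

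Genes of most lists lay near a member more often than the 51.8% of all placed genes. This held for 9 of the 11 placed genes of adipocyte identity and lipid storage (not FABP4 or LPL), for as many of the 11 placed genes of general cell upkeep, for 8 of 9 immediate early genes, 11 of 17 depot patterning genes, 14 of 16 adipogenic transcription factors (not KLF5 or SREBF1), 10 of 13 lipogenic genes, 9 of 10 genes of insulin signalling and 5 of 8 genes of lipolysis. Of the other cell types in the tissue, 12 of 14 fibroblast and matrix genes, 5 of 6 smooth muscle, 7 of 9 endothelial, 6 of 10 macrophage and 7 of 10 lymphocyte genes were near one. Of markers of other organs, 2 of 13 were, and neither of the 2 mesothelial markers. Members marked super in all 18 tables were the neighbours of RXRA and KLF9 among the factors, of PNPLA2 and MGLL, the lipases of triglycerides and monoglycerides, of PECAM1 and ENG in the endothelium, of TGFBR2, a receptor for TGF-beta, of JUNB, FOSL2 and ZFP36 among immediate early genes, and of ACTB, the cytoskeletal actin, among upkeep genes. These lists were written with earlier results of these data known and support no claim of their own.

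Adipocyte genes near members were abundant. ADIPOQ, which encodes the hormone adiponectin, had a mean of 3400 TPM over the 12 groups, CAV1 1289, THRSP 1248, PLIN1 818 and FASN 828. The promoter windows of 3 list genes whose start sites lie in a member are shown from 250 bases before to 50 bases after the start (RefSeq, Sscrofa11.1), with GC boxes and the E-box in capitals; that of ADIPOQ holds none of the motifs searched. The GC box was found in 64.2% of promoter windows whose start site lay in a member, in 54.6% of those whose start site did not, and in 58.3% of all.
ADIPOQ, chr13:124633656-124633955, plus strand: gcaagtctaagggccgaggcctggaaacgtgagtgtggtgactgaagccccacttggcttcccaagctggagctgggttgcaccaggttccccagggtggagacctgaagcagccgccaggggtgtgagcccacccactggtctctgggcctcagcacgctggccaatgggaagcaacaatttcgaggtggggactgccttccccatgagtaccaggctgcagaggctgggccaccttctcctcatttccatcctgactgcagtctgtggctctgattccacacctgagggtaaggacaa
LIPE, chr6:49543421-49543720, plus strand: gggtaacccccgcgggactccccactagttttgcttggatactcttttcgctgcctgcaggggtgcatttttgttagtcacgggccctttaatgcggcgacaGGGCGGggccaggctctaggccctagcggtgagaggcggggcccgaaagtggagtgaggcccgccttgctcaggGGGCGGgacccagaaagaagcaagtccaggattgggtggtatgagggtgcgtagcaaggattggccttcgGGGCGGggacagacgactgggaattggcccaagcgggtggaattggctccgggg
KLF15, chr7:53890509-53890808, minus strand: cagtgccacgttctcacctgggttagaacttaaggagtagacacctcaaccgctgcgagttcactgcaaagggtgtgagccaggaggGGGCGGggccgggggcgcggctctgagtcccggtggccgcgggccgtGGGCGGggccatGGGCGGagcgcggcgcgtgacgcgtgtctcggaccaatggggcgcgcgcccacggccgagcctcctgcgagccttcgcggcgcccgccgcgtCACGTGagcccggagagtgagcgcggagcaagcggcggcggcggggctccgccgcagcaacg

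Expression was then compared between diets within each depot, and between GOM and ULB in WG pigs. A gene was called where its adjusted p was below 0.05 and its fold change above 1.5 (edgeR's quasi-likelihood test on all genes, Benjamini-Hochberg adjusted); fold changes are on the log2 scale of normalised counts with their standard errors. In bulk tissue, fewer cells of a type and less RNA per cell cannot be told apart. Each WG group serves in more than 1 comparison, so these share samples. Libraries with less than 88% of TPM on protein-coding genes were unevenly spread, with 7 of 9 in NC GOM and 6 of 12 in NC RAD against 3 of 45 in WG GOM and none of 39 in WG RAD, and 6 of 10 in WL GOM and in WL MAD.

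In the greater omentum, fattened pigs had more mRNA of fat storage genes near members. Of 5984 tested genes near a member, 897 (14.99%) rose and 426 (7.12%) fell from NC to WG, against 13.1% and 8.59% of all placed genes tested. LEP, the gene of the satiety hormone leptin, rose by 2.26 ± 0.34 (adjusted p = 6.2e-07), from a lowest, median and highest TPM of 41.8, 75.05 and 93.1 over 9 NC libraries to 53.05, 375 and 1098.5 over 45 WG libraries. Most WG libraries were above the NC range, with some overlap. Among the 9 adipocyte genes GPD1, CIDEC, ACSL1, CAVIN1 and LEP rose and none fell. Among the 14 transcription factors CEBPA (1.71 ± 0.44, adjusted p = 0.0022), CEBPD and RXRA (0.73 ± 0.28, adjusted p = 0.036) rose. Among lipogenic genes ACACA, THRSP, DGAT2 and ELOVL6 rose, while LPIN1, a phosphatidate phosphatase, fell. G0S2, an inhibitor of the lipase PNPLA2, rose by 2.29 ± 0.59 (adjusted p = 0.0020). PPFIA2, which encodes a liprin, fell by 3.83 ± 0.29 with no overlap between the groups (2.32, 5.52 and 11.08 TPM against 0.0794, 0.438 and 2.08). IQCG, a gene of motile cilia, fell by 4.19 ± 0.23 on the log2 scale (adjusted p = 5.6e-22). Near the 101 members marked super everywhere, 57 of 312 genes rose and 23 fell, beside the same 13.1% and 8.59% of all placed genes. In the other depots these counts from NC to WG were 22 and 6 of 305 (MAD), 32 and 13 of 302 (RAD) and 2 and 5 of 311 (ULB). From WG to WL they were 4 and 8 of 311 in GOM, 16 and 42 of 310 in MAD, 3 and 22 of 308 in RAD, and 9 and 10 of 308 in ULB. From GOM to ULB they were 20 and 16 of 309. The shares of all placed genes are given below with each comparison.

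In the mesenteric depot, macrophage genes near members were higher in WG. Of 5916 genes near members 395 (6.68%) rose and 193 (3.26%) fell, against 5.75% and 4.17% of all. All 6 macrophage genes near members rose, among them the scavenger receptor MSR1 (2.08 ± 0.37, adjusted p = 1.1e-04) and CD163 (0.95 ± 0.20), and so did all 9 tested genes of the whole macrophage list. LEP rose by 1.93 ± 0.27 (adjusted p = 1.9e-06) while ADIPOQ fell by 0.76 ± 0.22 (adjusted p = 0.011). Of 5 smooth muscle genes 4 fell, among them DES, the muscle filament gene (-3.22 ± 0.41), but 1 NC library had a summed smooth muscle level of 15260 TPM against a group median of 1047. Without that library 332 genes rose and 164 fell (8.37% in all, against 8.20% of all placed genes), with 3 smooth muscle and 4 macrophage genes still called.

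In the retroperitoneal depot 508 of 5891 genes rose (8.62%) and 330 fell (5.60%), against 7.48% and 6.62%. With a term for the libraries low in protein-coding TPM, 275 rose and 143 fell (7.10%, against 6.59% of all placed genes). LEP rose by 2.01 ± 0.19 (adjusted p = 3.1e-11) from 40.2, 129 and 187 TPM (lowest, median and highest of 12 NC libraries) to 190, 547 and 1111 (39 WG libraries), without overlap. ADIPOQ fell by 0.92 ± 0.18 (adjusted p = 7.7e-05) and EBF1 by 0.60 ± 0.11 (adjusted p = 5.1e-05). Of the 10 depot patterning genes near members, 5 fell: HOXA5, HOXA9 (by 1.16 ± 0.13, adjusted p = 9.3e-10), HOXA10, HOXC8 and HOXC10. The immediate early genes FOS, FOSB, FOSL2 and JUNB (1.29 ± 0.22, adjusted p = 1.4e-05) rose, and of JUNB the TPM values were 35.7, 95.3 and 218 in NC and 148, 261 and 714 in WG. ACP5, a lysosomal phosphatase of macrophages and osteoclasts, rose by 2.71. Of other cell types, the macrophage genes MSR1 (1.57 ± 0.29) and MRC1 and the smooth muscle genes ACTA2 (0.98 ± 0.20) and CNN1 rose, and the summed smooth muscle level had a median of 301.4 TPM in NC and 648.5 in WG. APOA2, a liver apolipoprotein gene, fell by 2.63 ± 0.55. The summed markers of other organs had a median of 338.9 TPM in NC and 44.4 in WG, with a highest NC value of 14130, and the part of these levels in the calls was not tested. Other depots also had a higher median of other-organ markers in NC than in WG. It was 203.5 and 47.0 TPM in MAD, 184.9 and 42.6 in ULB, and 44.1 and 21.1 in GOM, and its part was not tested there either.

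In backfat few genes were called. Of 5913 genes 31 (0.524%) rose and 88 (1.49%) fell, against 0.503% and 1.57% of all, with only 5 NC libraries. Of these calls 26.05% were rises, and 50.3% with DESeq2 and its size factors. GLYATL2, an acyltransferase gene, fell by 3.74 ± 0.48 (adjusted p = 1.2e-06), from 0.0905, 1.26, 3.66, 17.1 and 53.3 TPM in the 5 NC libraries to 0.144, 0.922 and 11.01 (lowest, median and highest) in 38 WG libraries. IQCG fell by 3.31 ± 0.33 (adjusted p = 2.3e-09), from 0.724, 1.07, 2.24, 10.7 and 17.3 TPM to 0.299, 0.637 and 1.73. For GLYATL2 2 of the 5 NC libraries were above every WG library and 1 was below, and for IQCG 3 of 5 were above. LEP differed by 1.04 ± 0.32, which did not pass (adjusted p = 0.063). The count was 0.389% of genes in all with a term for the libraries low in protein-coding TPM.

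After caloric restriction the mRNA of fatty acid synthesis was lower in all 4 depots. The fall of FASN, fatty acid synthase, was 4.93 ± 0.56 for GOM, 5.57 ± 0.64 for MAD, 5.31 ± 0.60 for RAD and 3.96 ± 0.50 for ULB on the log2 scale (edgeR adjusted p between 1.2e-08 and 9.6e-08). In RAD its TPM values were 103, 761 and 3161 in 39 WG libraries and 4.01, 20.8 and 72.5 in 10 WL libraries, without overlap. In ULB they were 167, 1039 and 3192 against 9.01, 40.7 and 279, with overlap. ACLY, which supplies the acetyl-CoA, fell by 1.99 to 2.76. Of the 10 lipogenic genes near members, 7 fell in GOM and in ULB, 8 in MAD and 6 in RAD. PPARG fell in GOM (-0.65 ± 0.15, adjusted p = 0.0034), MAD (-0.77 ± 0.19, adjusted p = 0.0017) and RAD (-0.60 ± 0.14, adjusted p = 0.0020) and read -0.40 ± 0.19 in ULB (adjusted p = 0.14). KLF9, a glucocorticoid-responsive factor, fell in all 4, by 0.67 to 1.12. COL1A1, a chain of type I collagen, fell in all 4 too, by 1.98 to 2.68.

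The depots had other calls of their own. In GOM 138 of 5992 genes rose (2.30%) and 151 fell (2.52%), against 2.57% and 2.65% of all. Rises made up 47.75% of these calls and 34.01% with DESeq2. The plasma protein genes CP, ITIH2, F2 and APOF were called as higher there, but CP, for example, had a median of 0.994 TPM in WG and 0.874 in WL, and a highest value of 148 in WL, and APOF read -0.06 ± 0.37 (adjusted p = 0.94) in DESeq2. The summed markers of other organs (liver, gut and others) in WL GOM had a median of 20.2 TPM and reached 7716, and their part in these calls was not tested. In MAD 460 of 5986 rose (7.68%) and 583 fell (9.74%), against 7.96% and 8.71%. With a term for the libraries low in protein-coding TPM, 83 rose and 410 fell (8.24%, against 7.37% of all placed genes), and rises went from 44.1% to 16.8% of calls. There all 7 lymphocyte genes near members rose, with all 10 of the whole list, and CCR7, a homing receptor of lymphocytes, by 3.23. In 3 WL libraries the summed lymphocyte level was 1296, 982 and 526.1 TPM against a group median of 80.01, and in 1 WG library 579.6 against 54.98. Without these 4, 159 genes rose and 197 fell (5.96% in all, against 5.94% of all placed genes), and 6 lipogenic genes fell. In that fit edgeR called 0 of the 7 lymphocyte genes near members (3 at an unadjusted p under 0.05) and 0 of the 9 adipocyte genes (1 at an unadjusted p under 0.05). In RAD 130 of 5928 rose (2.19%) and 280 fell (4.72%), against 2.26% and 4.13%. KIF5A, a kinesin, rose by 1.78 ± 0.15 (adjusted p = 2.2e-12), from 0.638, 2.04 and 3.85 to 5.06, 7.40 and 9.25 TPM, without overlap. In ULB 206 of 5935 rose (3.47%) and 274 fell (4.62%), against 3.22% and 4.77%. Rises made up 42.92% of calls, and 32.69% with DESeq2. The adipocyte genes GPD1, PLIN1, PLIN4, CAVIN1 and ADIPOQ rose there. PLIN1, the coat protein of lipid droplets, rose by 0.69 ± 0.11 (adjusted p = 7.1e-06), from 510, 762 and 1105 to 858, 1228 and 2198 TPM. PCK1, which makes the glycerol backbone of triglycerides, rose by 2.74 ± 0.29 (adjusted p = 1.7e-09), and DGAT1, which adds the last fatty acid, by 0.81 ± 0.14. SLC2A5, the fructose transporter, fell by 4.55 ± 0.47 (adjusted p = 1.3e-09), from 4.80, 15.9 and 62.6 to 0.308, 0.786 and 3.31 TPM, without overlap. G0S2 rose in MAD, RAD and ULB, by 1.77, 1.95 and 1.45, and read 0.84 in GOM (adjusted p = 0.19). Whether depots differed in these responses was not tested.

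Between depots of WG pigs, 7 of the 9 patterning genes near members differed, 6 of them higher in ULB and 1 in GOM. Of 5961 genes near members 451 (7.57%) were higher in ULB and 553 (9.28%) in GOM, against 7.82% and 10.2% of all. By the study's methods the 4 depots were taken from each carcass, so both groups come from the same pigs, but the labels do not tie a library to a pig, and the fit treats them as separate. HOXD8 was higher in ULB by 3.18 ± 0.11 (adjusted p = 1.0e-43), with 4.21, 9.70 and 14.9 TPM (lowest, median and highest) in 45 GOM and 46.01, 81.6 and 118 in 38 ULB libraries, without overlap, and its member had the higher signal in ULB. HOXA9 was higher in ULB by 1.26 ± 0.20 (adjusted p = 7.5e-08) and HOXA5 read -0.23 ± 0.15 (adjusted p = 0.22), though the signal of the member they share was higher in GOM. The HOXA9 medians of 0.632 TPM in GOM and 1.23 in ULB were both near the limit of 0.5 TPM used for detection. GATA6, a factor of visceral mesoderm, was higher in GOM (-2.74 ± 0.16, adjusted p = 6.8e-27), as was the epithelial cadherin gene CDH1 (-3.65 ± 0.25). The summed mesothelial markers had group medians of 78.3 to 114 TPM in GOM and 0.26 to 0.735 in ULB, and their part in such differences was not tested. Immediate early genes were higher in ULB in 7 of 8 cases, FOSB by 2.44 ± 0.27, fibroblast genes in 6 of 12 and lymphocyte genes lower in 6 of 7. PPARG differed by 0.51 ± 0.11 (adjusted p = 4.0e-05), under the fold required. PECAM1, the endothelial adhesion gene next to an all-table super-enhancer, was called in none of the 9 comparisons by edgeR.

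Member signal is set beside expression as the median log2 difference in relative signal, with members near no called gene as the reference. From NC to WG in GOM it was 0.54 over 646 members near genes that rose and 0.10 over 419 near genes that fell. Over 2920 with no called gene near it was 0.18. In RAD the 3 values were 0.10, -0.02 and 0.001, and in ULB 0.56 (33 members), 0.24 and 0.26. From GOM to ULB they were -0.09, -0.33 and -0.11. In each of these the rising class was above the reference and the falling class below, though the quartiles overlapped. This did not hold from NC to WG in MAD (0.60, 0.49 and 0.40) or from WG to WL. There the values were 0.16 in all 3 classes in GOM and 0.41, 0.36 and 0.35 in MAD. In RAD they were 0.44, 0.45 and 0.42, and in ULB 0.56, 0.44 and 0.36. These are descriptions over members of pooled tables.

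**Figure D4:**
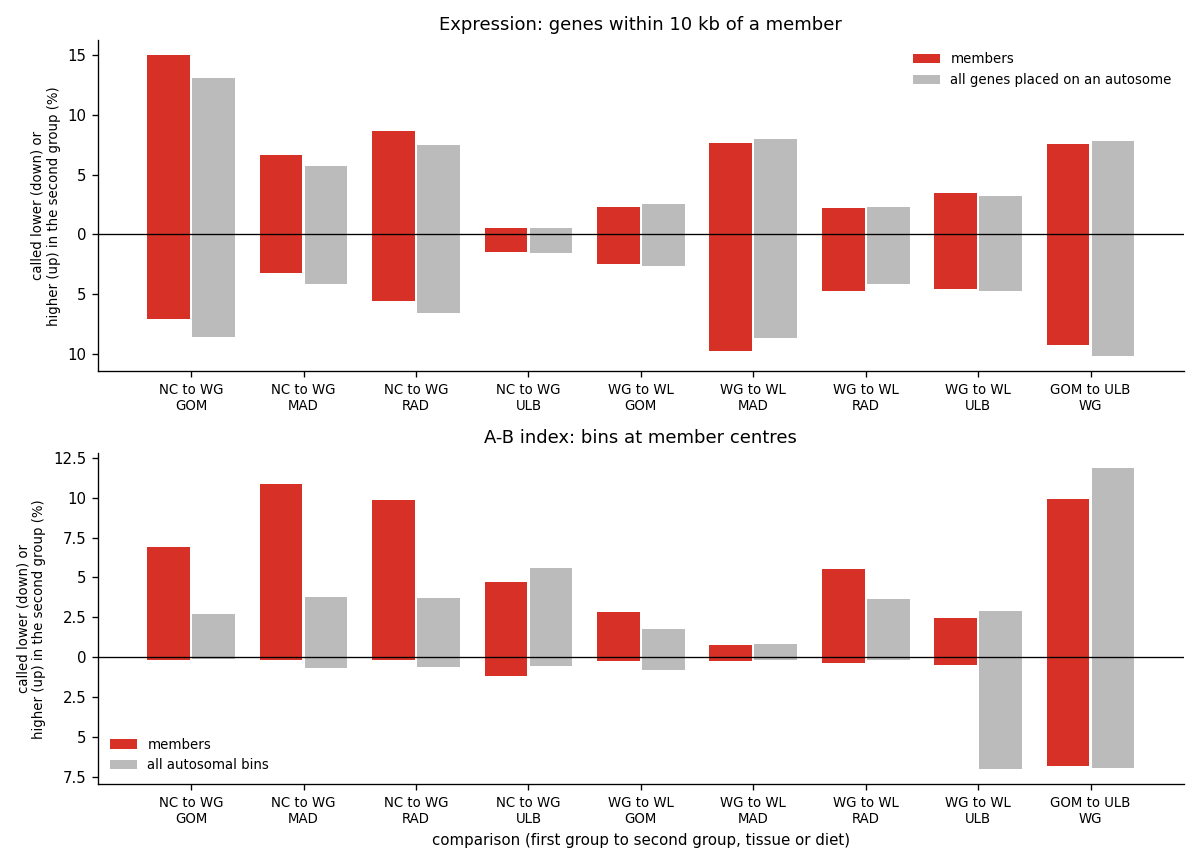
Percent of genes near members called in each of the 9 expression comparisons and percent of members called in each of the 9 compartment comparisons; bars upward are higher in the second group and bars downward lower, red for members and grey for all placed genes or all bins. The expression bars of members lie close to the grey ones, and the compartment bars of members exceed them most from NC to WG in GOM, MAD and RAD.

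Members lay mostly in the A compartment. The A-B index, computed by the authors in bins of 20 kb, is positive in A and negative in B. Over 240 Hi-C libraries the median index over members was 2.80 (2.09 to 3.33), against 1.37 (0.822 to 1.77) over other regions and -0.13 over all bins, and it was higher for members in 240 of 240. The median share of members in A was 90.4% (85.5% to 93.0%), against 70.8% of other regions and 48.5% of bins. It was higher within each length class as well: the median mean index was 1.75 for members and 1.14 for others up to 10 kb, 2.75 and 2.17 at 20 to 50 kb, and 3.72 and 3.44 above 100 kb, where there were 20 others. In all, 3941 members (69.3%) were in A in every library, 106 (1.86%) in B in every library and 1638 changed sign between libraries, while 43.9% of other regions were in A throughout. This share was 93.1% for the members that were super-enhancers throughout.

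**Figure D5:**
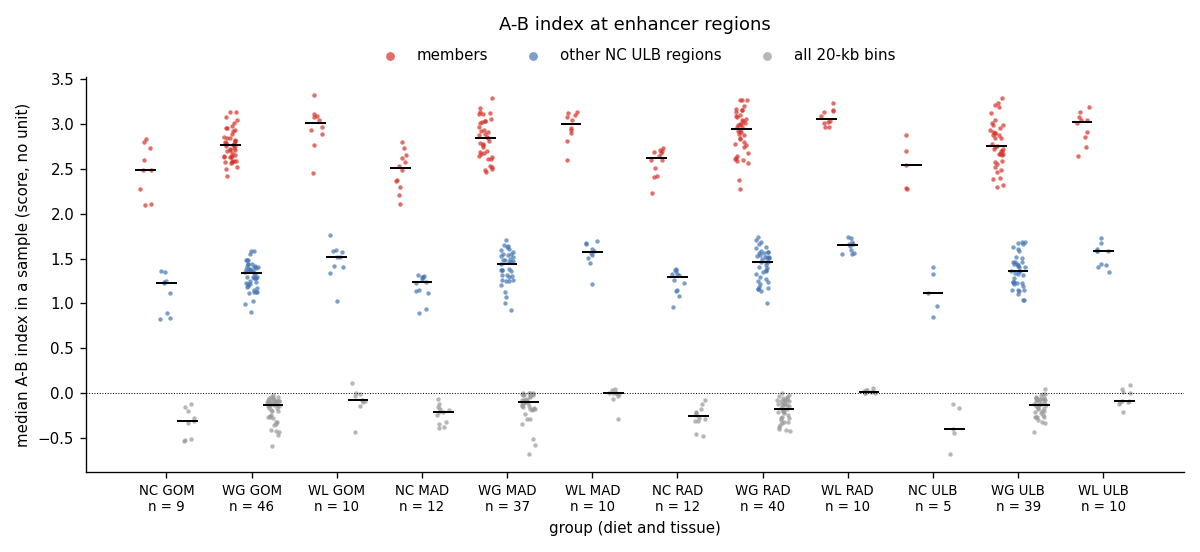
Median A-B index in each Hi-C library over members and over other NC ULB regions, by group of depot and diet; points are libraries and black lines are group medians. Members lie between 2.09 and 3.33 and are above the other regions in each of the 240 libraries.

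Chromosome 10 stood apart. In 35 of the 240 libraries the index at its 208 members correlated below 0.5 with the median over libraries, down to -0.96, while the lowest such value on any other chromosome was 0.72. Of these, 15 were WG RAD, 7 WG GOM, 5 WG MAD, 5 WG ULB, 2 NC MAD and 1 NC RAD. Without chromosome 10, 72.0% of 5477 members were in A throughout and 45.4% of other regions.

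The 106 members in B throughout were shorter, at a median of 11800 bases against 41400 for those always in A, and none was super in all tables. Even so, 87.9% of their neighbouring genes were detected, with a median mean TPM of 6.32 against 16.9. They included regions at HS3ST3B1 (chr12:58152600-58173399, mean index -5.47), a heparan sulphate sulphotransferase, at MYOCD (-5.10), the coactivator of smooth muscle genes, and at ANKS1B (chr5:84648200-84652599, -5.05).

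Compartment differences were called where limma's adjusted p was below 0.05 and the mean index differed by more than 0.75. From NC to WG, 394 of 5685 members rose in GOM (6.93%) and 9 fell (0.158%), against 2.68% and 0.11% of all bins. In MAD 617 rose (10.9%) and 12 fell (0.211%), against 3.8% and 0.678%. In RAD 561 rose (9.87%) and 11 fell (0.193%), against 3.69% and 0.631%. In ULB 268 rose (4.71%) and 67 fell (1.18%), against 5.57% and 0.579%. The median over all bins also rose, by 0.14, 0.05, 0.14 and 0.25 for GOM, MAD, RAD and ULB in turn, and over members by 0.21, 0.31, 0.29 and 0.20, and the counts depended on the scale of the index. With the samples quantile normalized, 141 rose and 27 fell in GOM, 165 and 26 in MAD, 187 and 48 in RAD, and 59 and 80 in ULB. In shares of members these are 2.48% and 0.475%, 2.90% and 0.457%, 3.29% and 0.844%, and 1.04% and 1.41%. The shares of all bins were then 0.87% and 0.387%, 1.09% and 0.684%, 1.2004% and 1.43%, and 0.953% and 1.05%, so in ULB members were near the background. In ULB the count in both directions ran from 38 without NC replicate 5 to 476 without NC replicate 7. Few called members changed compartment: 15 went from B to A and 2 from A to B of 403 in GOM, 8 and 0 of 629 in MAD, 15 and 2 of 572 in RAD, and 25 and 3 of 335 in ULB.

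A member at ARHGAP26 (chr2:144287400-144352799), which encodes a GTPase-activating protein, rose the most in GOM, by 1.63 ± 0.19 (adjusted p = 8.2e-07). Its index was 1.70, 2.58 and 3.49 (lowest, median and highest of 9 NC libraries) and 2.61, 4.19 and 5.26 (46 WG libraries), with overlap. In MAD the largest rise was at chr2:143520600-143531399 on the same chromosome, by 1.79 ± 0.23 (adjusted p = 1.0e-06), and in RAD at SAMD4A (chr1:183949400-184093999), a translational repressor, by 1.66 ± 0.25 (adjusted p = 7.4e-06). All 3 were in A on average in both diets.

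From WG to WL, 160 members rose in GOM (2.81%) and 13 fell (0.229%), against 1.75% and 0.782% of bins, but 42 of the 160 lay on chromosome 10. In MAD 42 rose (0.739%) and 14 fell (0.246%), against 0.836% and 0.169%. In RAD 314 rose (5.52%) and 22 fell (0.387%), against 3.62% and 0.205%, and in ULB 141 rose (2.48%) and 29 fell (0.51%), against 2.92% and 7.04%. Quantile normalized, the counts were 33 and 32 in GOM, 29 and 32 in MAD, 155 and 66 in RAD, and 36 and 75 in ULB. Falls then outnumbered rises in MAD and ULB, and in GOM rises went from 92.5% to 50.8% of calls. The shares of members were 0.58% and 0.563% in GOM and 0.51% and 0.563% in MAD, near the 0.594% and 0.302% and the 0.481% and 0.311% of all bins. In RAD they were 2.73% and 1.16% against 1.27% and 0.783%, and in ULB 0.633% and 1.32% against 1.985% and 1.14%. In ULB a member near NR6A1 (chr1:265556200-265654199) rose by 1.42 ± 0.30 (adjusted p = 2.6e-04) and the ANKS1B member fell by 1.07 ± 0.18 (adjusted p = 1.2e-05).

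Between GOM and ULB in WG pigs, 563 members were higher in ULB (9.90%) and 387 lower (6.81%), against 11.9% and 6.97% of bins. Of these, 139 and 12 lay on chromosome 10. Quantile normalized, the counts were 545 and 378. Without chromosome 10, 424 of 5477 members were higher (7.74%) and 375 lower (6.85%), and the share of bins without it was not computed. With chromosome 10 included, this comparison held the most members that changed compartment, with 97 from B to A and 37 from A to B. How many of these lay on chromosome 10 was not counted, and none of its members kept the same sign in every library. The member at CDH13 (chr6:5824200-5832599), which encodes the T-cadherin receptor for adiponectin, was higher in ULB by 3.01 ± 0.12 (adjusted p = 4.7e-37). Its index was -4.83, -3.43 and -2.25 in 46 GOM and -1.78, -0.41 and 0.463 in 39 ULB libraries, without overlap. The member at TJP1 (chr1:145130800-145143799), a tight junction gene, was lower in ULB by 2.14 ± 0.11 (adjusted p = 8.4e-32), with 1.62, 2.85 and 3.68 in GOM and -0.301, 0.669 and 2.05 in ULB.

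The centres of members did not stand nearer to domain boundaries than those of other regions. The share of centres within 40 kb of a boundary of the authors' topologically associating domains had a median over 240 libraries of 19.5% (16.6% to 23.1%) for members, 20.4% for other regions, 15.8% for the 101 members super in all tables and 18.03% for all bins. Members exceeded other regions in 3 of 240 libraries and all bins in 238. A long region can reach a boundary far from its centre, and these shares were not matched for length, so they do not compare whole regions.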

How the data were processed

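H3K27ac ChIP-seq, RNA-seq and in situ Hi-C of pig adipose tissue were used. Per the study's methods, reads were mapped to Sscrofa11.1 with BWA 0.7.15 and handled with SAMtools 1.3.1, peaks were called by SICER on pooled replicates, and nearby peaks were stitched with ROSE. By those methods a pooled peak was kept only if a set share of replicates held it, and ROSE was set to leave out promoters. The NC tables still held start sites in more of their regions than the WG and WL tables, as given above. The enhancer tables hold the signal of pooled H3K27ac and input libraries as deposited by the authors. The authors made the estimated count and TPM tables with kallisto 0.43.0, and the A-B index, an unbounded score in 20 kb bins with positive values in A, from Hi-C contacts. No sample matched 9 columns of expression and 9 columns of the index, which were not used. Depth behind the expression values was 3.34 to 22.94 (median 16.79) × 1e6 estimated counts on protein-coding genes, and the pooled signal files give no counts, so no counting interval is given.

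Members are autosomal NC ULB regions with at least 1 base in common with a region of each of the 17 other tables. Genes were placed by symbol on RefSeq, which succeeded for 61.3% of rows, so genes without a match are missing. A gene was near a region if its body lay within 10 kb. Estimated counts were rounded and tested with edgeR 4.0.16 (quasi-likelihood, TMM) on genes that passed 0.5 TPM in 80% or more of the libraries of either group compared, and the index, at the bin holding the centre of a region, with limma 3.58.1 on all 113298 bins, under R 4.3.3. Both tests were adjusted by Benjamini-Hochberg over all genes or bins. Region overlaps were made in Python 3.11.15. Both tests were tested on simulated data. In the comparison of NC with WG in ULB over 13600 genes, 99% of genes changed 3-fold and 32% of genes changed 1.8-fold were recovered. All genes were simulated with the same spread, and only genes above a limit of mean count were changed. Recovery can be lower for genes of larger spread or lower counts, which was not tested. Alternatives were DESeq2 1.42.0, other filters and thresholds, quantile normalization, a replicate block, a term for libraries under 88% of TPM on protein-coding genes, leaving out NC ULB replicates, and other rules for members.

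Named regions were the leading, shortest, longest, steadiest and most variable members and those at the limit of the rule. Named genes were the most abundant of the lists and the largest called changes above 5 TPM, up to 5 in each direction; other list genes in the text were chosen after their values were seen, as were the settings without some MAD libraries, without chromosome 10 and with a median over regions without start sites. The members and the 15 gene lists were chosen with earlier results of these data known. The 4 depots came from the same pigs, but the labels do not say that equal replicate numbers mark the same pig. Where nothing tells that samples of a group are different animals, p-values measure only the spread between samples. A few results are not reported here.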

Additional observations from a re-analysis of the deposited data

Results flagged for a closer look

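In 114 groups of 4 to 10 samples, 9 had a highest sample set far from the others by Dixon's criterion, where chance alone gives about 1 in 20. In WL pigs, replicate 5 had the highest G0S2 level in 3 depots, with 624.6 TPM in GOM (next 363.3), 893.3 in MAD (next 377.3) and 952.2 in RAD (next 542.8). In WL ULB, PLIN1 reached 2198 TPM and RXRA 149.9 in replicate 3, with 1365 and 101.7 in the next libraries, and FASN 278.6 in replicate 1, with 139.9 in the next. PNPLA2 stood at 255.7 TPM in WL GOM replicate 4 (next 156.3), and CEBPA at 379.4 in NC ULB replicate 7 (next 144.7). The share of members in A was 92.61% in WL ULB replicate 5 and 91.2% in the next library.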

How the results depend on the processing

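The number of members was 5685 under the rule. It was 1367 when 50% of the region had to be overlapped, 2979 with only the better-ranked regions of each table and 101 with super-enhancers only, and it stayed between 5417 and 6261 with another table as the base and between 5700 and 6137 with any 1 table left out. Of the expression results (percent of genes near members called), all 9 stayed within 1.5 times under DESeq2, under body overlap and with the start site inside. The NC to WG comparison of ULB gave 4.06 without a filter on TPM, and 0.732 to 2.71 with 1 NC replicate left out (0.732 without replicate 9 and 0.7999 without replicate 5). A term for libraries low in protein-coding TPM gave 7.10 for NC to WG in RAD, 0.389 in ULB and 8.24 for WG to WL in MAD, where leaving out libraries high in lymphocyte markers gave 5.96. It also moved the share of rises among the calls from 26.05% to 8.70% in NC to WG of ULB, from 47.75% to 24.68% in WG to WL of GOM and from 44.1% to 16.84% in MAD.

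Of the compartment results (percent of members called), a threshold of 0.5 instead of 0.75 gave 18.3, 28.1, 27.02 and 8.90 for NC to WG in GOM, MAD, RAD and ULB, 11.9, 4.80, 15.6 and 11.8 for WG to WL, and 33.4 between GOM and ULB. Quantile normalization gave 2.96, 3.36, 4.13 and 2.45 for NC to WG, and 1.14 in GOM, 3.89 in RAD and 1.95 in ULB for WG to WL. Leaving out 1 NC ULB replicate gave 0.668 to 8.37, and leaving out WL GOM replicate 9 gave 2.71. The causes were not tested.

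With the replicate number as a block, only same-numbered pairs inform the fit. Same-numbered samples did not deviate together between diets in expression (median correlations of -0.15 to 0.07). In the index the medians ran from -0.076 to 0.143, the highest for NC to WG in RAD with 6 of 11 pairs above 0.1. Between GOM and ULB in WG the median was 0.578, 37 of 38 pairs were above 0.1 and 25 of 38 samples correlated best with their own number, which is a hint that the numbers mark pigs. The depots were taken from the same pigs by the study's methods, but the labels do not give the meaning of the number. The replicate block gave 2.62 for expression in NC to WG of GOM, 0.101 of MAD, 5.58 of RAD and 0 of ULB (edgeR, 173 of 5913 genes at an unadjusted p under 0.05, and 167 called by DESeq2 without the block), and 1.67 for WG to WL in GOM. For the index it gave 0 in NC to WG of GOM and ULB (limma, 915 and 500 members at an unadjusted p under 0.05), 0 in WG to WL of GOM and MAD (1294 and 701) and 2.15 in RAD. It kept the other 8 counts within 1.5 times, among them 16.4% for expression between GOM and ULB. In simulated data of NC against WG in ULB, with the same spread for all genes, 32% of genes changed 1.8-fold were recovered, so changes of that size could go uncalled there.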
